A study of Homo sapiens with 12 samples.

Results

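Type I interferon-stimulated genes, the antiviral genes that cells switch on after type I interferon binds its receptor, were followed across 12 Illumina bead arrays of HCC827 lung cancer cells. The 50 genes were chosen by name as well-known members of this class, but with earlier results of these data known. The shares of the set given below beside those of all genes are therefore descriptions and not tests of the set. A probe belonged to the set if the platform annotation gave it one of these symbols (RIGI also as DDX58). Of the 50 genes, 49 had named probes (72 of the 30113 probes with 1 gene symbol), and 1 was not analysed here. A gene was tested when a probe was detected, with a detection p under 0.05, on at least 3 of the 12 arrays. This left 46 of the 49, among 13577 tested genes of 20046 with a probe. RSAD2 (viperin) was detected on 2 arrays at most, and CMPK2, a mitochondrial nucleotide kinase, and TRIM22, an antiviral ubiquitin ligase, on 0.

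Type I interferons bind the receptor pair IFNAR1 and IFNAR2, whose kinases JAK1 and TYK2 then activate a transcription factor complex that contains IRF9. This complex binds the interferon-stimulated response element (ISRE) in promoters. Many of the products are also the machinery of the response: RNA sensors and IRF factors start or amplify it, and OAS, IFIT, IFITM and MX proteins act against viral RNA, entry and capsids. Tumour cells can carry a basal level of these genes without any virus.

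HCC827 cells come from a non-small cell lung cancer with an activating mutation of EGFR, the kinase that the drug gefitinib inhibits. The arrays fell into 4 groups of 3, namely HCC827 with gefitinib in monoculture, HCC827 with DMSO in monoculture, HCC827 with gefitinib in co-culture, and HCC827 in co-culture without gefitinib. Co-culture means that MRC-5 cells, a normal human lung fibroblast line, shared the medium across inserts with 1 µm pores. The treated cells received 0.5 µM gefitinib after 24 h, were washed with PBS, and gave RNA 48 h later, as the protocols in the labels describe. All cells came from the same 1 line, and nothing in the labels says whether the arrays of a group came from separate cultures, so p-values measure only the spread between these samples. Which medium the monocultures had in the last 48 h, and whether gefitinib was still present, was stated in none of the labels read. The 6 co-culture arrays also differed from the 6 monoculture arrays in the scanner table, in the order of its rows and in median intensities, which were 105.5 to 109.7 in co-culture against 99.1 to 102.6 in monoculture. The titles of the co-culture samples end in a suffix, WH, that the labels do not explain. Array set, medium and co-culture cannot be told apart in comparisons across the sets. Gefitinib was compared with its control inside each set. In these bulk RNA samples, fewer cells of a type and less RNA per cell cannot be told apart.

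The ISRE is the sequence by which these genes are classically controlled, so promoters of some genes with large and with small changes are shown. RefSeq promoter windows (GRCh38.p14, 250 bases before to 50 after a gene's start) were matched by symbol for 39 of the 49 genes. An ISRE core was searched as GAAANNGAAA, in either orientation (TTTCNNTTTC on the other strand). It stood in 27 of the 39 (69.2%), against 4.38% of the 27305 genes with a window and 3.57% of all 35116 windows. The GAS core of interferon-gamma signalling, TTCNNNGAA (which reads the same on both strands), stood in 13 of the 39, against 9.38% of the genes and 7.66% of all windows. Of the 29 matched genes that rose with gefitinib in monoculture 21 held the ISRE core, and of the 8 matched genes that were tested and not called 5 did (EIF2AK2, IFIT5, SAMD9, PARP9 and PARP12). The GAS core stood in 12 of the same 29 genes and in 1 of the same 8 (IFI35). These splits are descriptions, with no test. The stretches below run from 150 bases before to 30 after the start, 5′ to 3′ on the gene's strand, with ISRE cores in capitals. The first 5 belong to the matched genes with the largest increases with gefitinib in monoculture, and the last 3 to matched genes with a core and the smallest changes. OAS2, MX2, GBP2, IFIT2 and DHX58, which rose more than GBP1, had no matched window and are not shown.
IFI44L (chr1:78620298-78620477, plus strand): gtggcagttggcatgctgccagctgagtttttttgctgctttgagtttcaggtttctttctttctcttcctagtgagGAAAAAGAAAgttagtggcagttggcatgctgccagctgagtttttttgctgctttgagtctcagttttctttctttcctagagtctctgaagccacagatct
IFI27 (chr14:94110586-94110765, plus strand): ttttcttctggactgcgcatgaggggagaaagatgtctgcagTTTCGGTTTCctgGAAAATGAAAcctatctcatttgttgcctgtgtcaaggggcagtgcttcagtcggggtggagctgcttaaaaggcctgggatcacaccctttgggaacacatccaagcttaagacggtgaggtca
EPSTI1 (chr13:42992212-42992391, minus strand): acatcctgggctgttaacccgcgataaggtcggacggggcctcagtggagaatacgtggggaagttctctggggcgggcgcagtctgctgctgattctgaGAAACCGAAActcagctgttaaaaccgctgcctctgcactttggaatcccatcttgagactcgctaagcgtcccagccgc
MX1 (chr21:41420408-41420587, plus strand): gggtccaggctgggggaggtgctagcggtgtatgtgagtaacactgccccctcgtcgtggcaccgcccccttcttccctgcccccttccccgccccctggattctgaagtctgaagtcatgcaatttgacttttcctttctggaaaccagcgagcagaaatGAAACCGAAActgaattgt
GBP1 (chr1:89065179-89065358, minus strand): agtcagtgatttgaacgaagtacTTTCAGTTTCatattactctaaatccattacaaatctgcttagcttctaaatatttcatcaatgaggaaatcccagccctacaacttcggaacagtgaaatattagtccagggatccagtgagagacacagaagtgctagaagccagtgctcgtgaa
PARP12 (chr7:140062922-140063101, minus strand): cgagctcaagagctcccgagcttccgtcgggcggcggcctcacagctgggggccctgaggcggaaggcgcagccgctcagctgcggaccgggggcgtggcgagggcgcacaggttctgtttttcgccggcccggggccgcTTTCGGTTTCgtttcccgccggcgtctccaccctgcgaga
IFIT5 (chr10:89414418-89414597, plus strand): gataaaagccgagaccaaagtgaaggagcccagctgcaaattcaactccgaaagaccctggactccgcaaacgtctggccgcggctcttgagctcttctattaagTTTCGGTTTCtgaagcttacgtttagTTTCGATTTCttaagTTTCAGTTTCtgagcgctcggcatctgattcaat
EIF2AK2 (chr2:37156951-37157130, minus strand): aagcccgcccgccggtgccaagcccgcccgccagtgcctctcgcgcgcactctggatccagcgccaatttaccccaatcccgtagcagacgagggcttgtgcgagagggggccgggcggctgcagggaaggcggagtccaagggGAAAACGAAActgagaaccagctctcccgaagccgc
In IFI27 a pair of cores lay in opposite orientations, 108 and 95 bases before the start. The core of MX1 began 11 bases after its annotated start, and the core of GBP1 lay 127 bases before it. IFIT5, which was not called in any comparison, had 3 cores, at 45, 19 and 4 bases before its start.

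Gefitinib in monoculture was accompanied by higher levels of most of the set, and in co-culture by higher levels of a few. Of the 46 tested genes, 37 rose with gefitinib in monoculture and 0 fell, with a median log2 change of 0.79, against 0.01 over all genes. Over all 13577 genes 16.9% rose and 14.5% fell (2301 and 1974 genes, or 1689 and 2347 if arrays are scaled to equal medians and not quantile-normalized). The 46 can include genes that were detected because they were high in 1 group. Of the 40 detected on all 12 arrays 33 rose and 0 fell, but the share among all genes detected on all 12 was not counted. Without any detection filter 37 of 49 rose, against 2173 of 20046 genes. With detection asked on at least 6 arrays 39 of 45 rose, against 2337 of 11698 genes. The increase was at least 2-fold for 20 genes, and the share of all genes with such an increase was not counted. On all 3 gefitinib monoculture arrays, 39 of the 46 genes stood above each of the other 9 arrays, against 17.4% of all genes (2357). The 9 genes that were not called were EIF2AK2, IFIT5, SAMD9, SAMD9L, USP18, TRIM25, PARP9, PARP12 and IFI35.

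**Figure D1:**
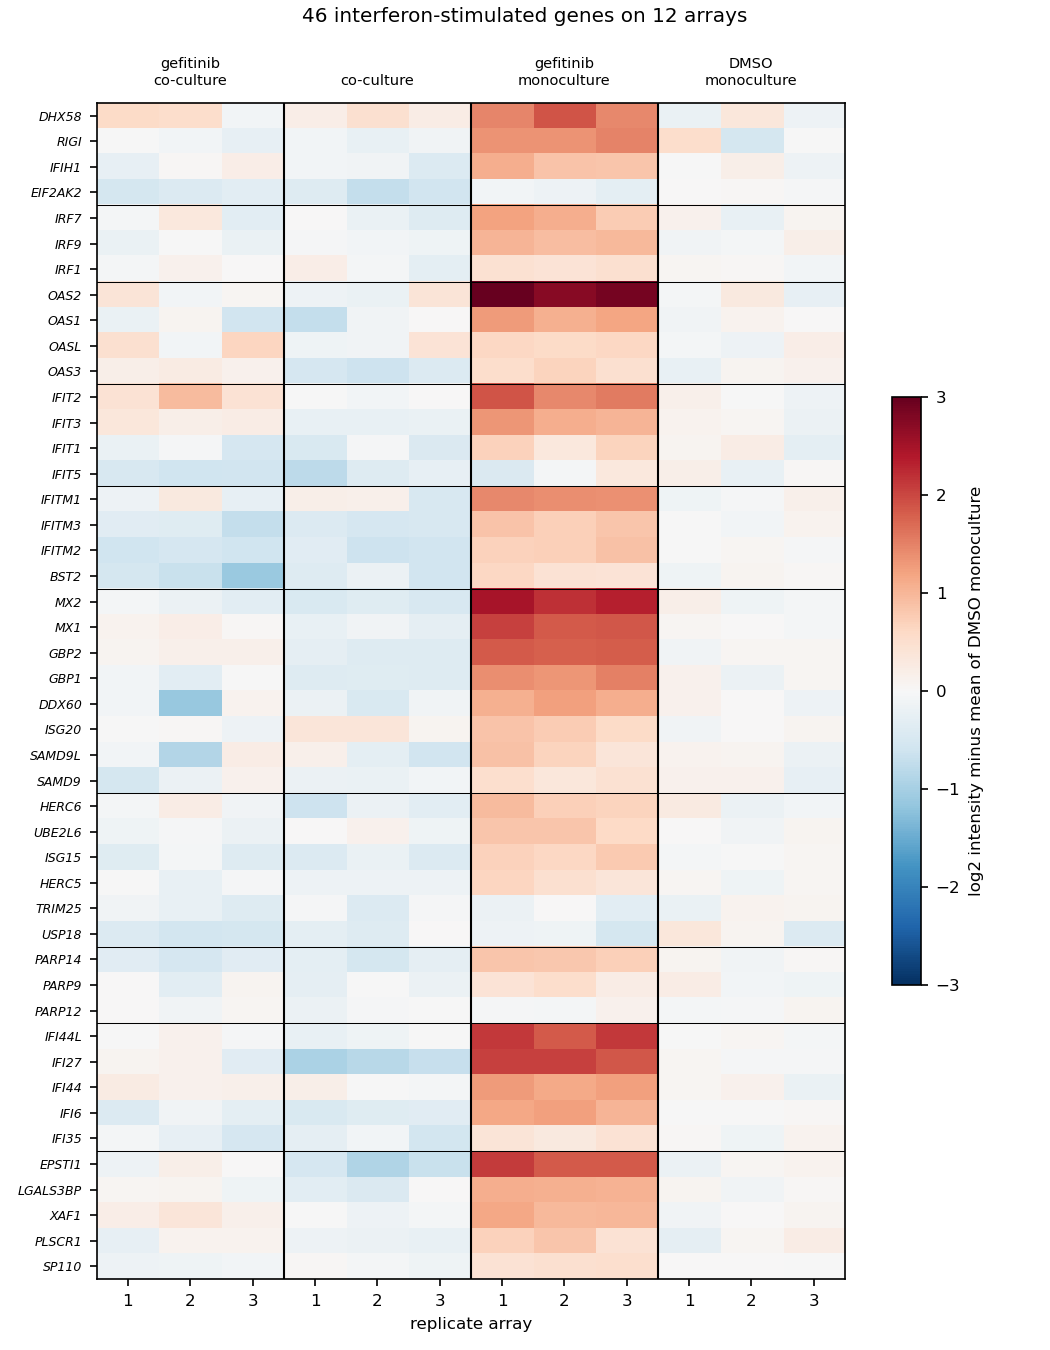
Levels of the 46 tested genes (rows, grouped by role) on the 12 arrays (columns, 3 per group), as log2 intensity minus the mean of the 3 DMSO monoculture arrays. The 3 gefitinib monoculture arrays form the red block, with OAS2 darkest, while the 6 co-culture arrays stay near the DMSO monoculture level.

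In co-culture, 4 of the 46 genes rose with gefitinib (OAS3, GBP2, IFI27 and EPSTI1) and 0 fell, with a median log2 change of 0.07, against 0.00 over all genes. Over all genes 0.619% rose and 0.884% fell (84 and 120, or 50 and 113 with median scaling). At an unadjusted p under 0.05 there were 11 of the 46, 9 higher and 2 lower (BST2 and ISG20), against 11.8% of all genes (757 higher and 851 lower). When the 6 co-culture arrays were fitted alone 0 genes of the set were called, against 25 higher and 36 lower over all genes, and 10 of the 46 had an unadjusted p under 0.05, against 9.49% of all genes. When any 1 of the 6 co-culture arrays was left out of the fit over all arrays, 2 or 3 of the set were called, against 0.913% to 1.26% of all genes.

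The gefitinib effect differed between the culture settings for 30 of the 46 genes, each with a lower effect in co-culture than in monoculture, and for 0 in the other direction (median difference of the log2 changes -0.81, against -0.03 over all genes). Over all genes this difference was positive for 8.06% and negative for 9.91% (1094 and 1345 genes, or 1063 and 972 with median scaling, where it was negative for 27 of the 46). All 30 were among the 37 genes that had risen in monoculture. The difference was not called for the other 7: IRF1, OAS3, OASL, IFIT1, HERC5, HERC6 and PLSCR1.

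**Figure D2:**
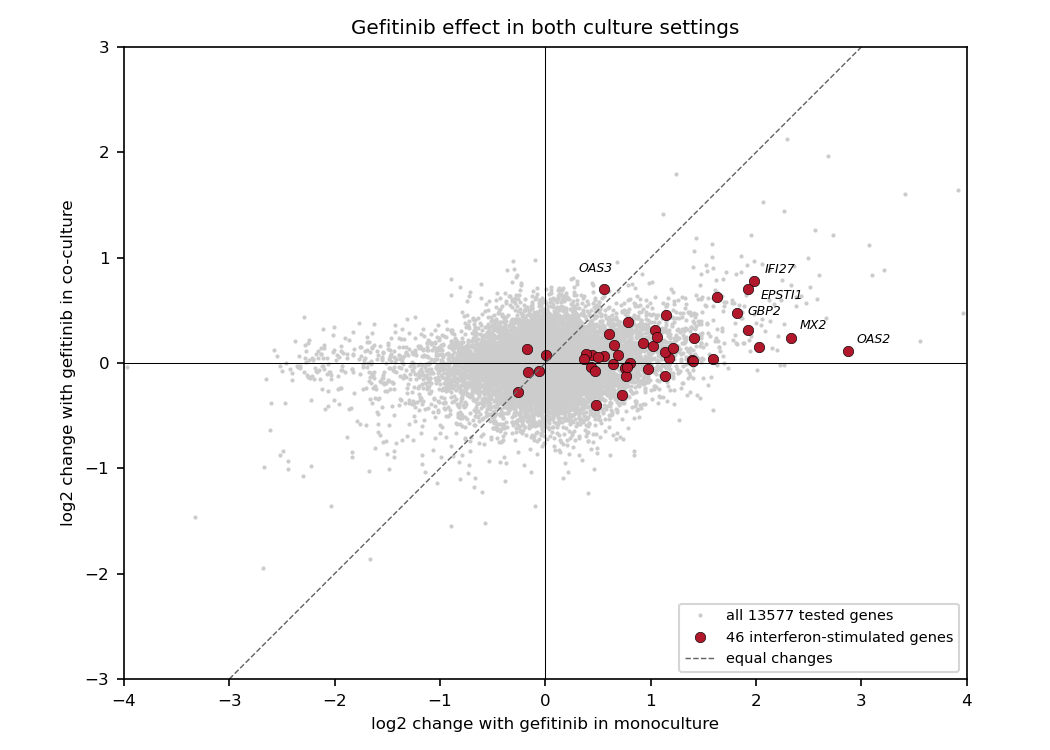
Log2 change with gefitinib in co-culture (vertical axis) against the log2 change with gefitinib in monoculture (horizontal axis) for all 13577 tested genes (grey) and the 46 interferon-stimulated genes (red), 3 against 3 arrays each; the dashed line marks equal changes. Most red points lie right of 0 and close to the horizontal zero line, with OAS2 farthest to the right, and OAS3 lies above the dashed line.

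Under gefitinib, co-culture stood below monoculture for 40 of the 46 genes and above it for 0 (median log2 difference -0.99, against -0.05 over all genes, of which 14.5% were higher and 20.8% lower, 1973 and 2828, or 2220 and 2175 with median scaling, where 38 of the 46 were lower). For 23 of the 40 the difference was at least 2-fold, and the share of all genes with such a difference was not counted. In 30 of the 46 genes the mean with gefitinib in co-culture was below the mean with DMSO in monoculture. The share of all genes with this order was not counted, so the 30 cannot be read as particular to the set. Without gefitinib, 7 of the 46 were lower in co-culture and 0 higher (EIF2AK2, OAS3, IFITM2, IFITM3, GBP2, IFI27 and EPSTI1; median -0.21, against -0.03 over all genes, of which 1.64% were higher and 1.89% lower, 223 and 257, or 149 and 103 with median scaling). IFI27 kept its call in each alternative setting, while each of the other 6 lost it in some. The count was 1 to 4 with any 1 of the 6 arrays left out of the fit over all arrays, against 1.13% to 2.21% of all genes. The 5 comparisons share arrays, so their counts are not independent of each other.

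The cytoplasmic RNA sensors rose with gefitinib in monoculture in 3 of 4 cases. DHX58 (LGP2), a sensor that modulates its relatives, had levels, in log2 intensity here and throughout, of 6.24, 6.68 and 6.23 with gefitinib against 4.59, 5.13 and 4.64 with DMSO in monoculture, a change of 1.60 ± 0.21 (SE; adjusted p = 0.000127). In co-culture it had 5.36, 5.32 and 4.70 with gefitinib and 4.99, 5.27 and 5.01 without. The monoculture groups were far apart, with DHX58 detected on 1 of the 3 DMSO arrays, while the co-culture groups overlapped. RIGI, the sensor of uncapped viral RNA ends, stood at 6.76, 6.75 and 6.89 with gefitinib against 5.93, 4.89 and 5.40 with DMSO (1.40 ± 0.20, adjusted p = 0.000279). With co-culture it stood at 5.39, 5.33 and 5.17 with gefitinib and 5.33, 5.18 and 5.29 without, within the range of the DMSO monoculture arrays. Its promoter held no ISRE core. IFIH1 (MDA5), the sensor of long double-stranded RNA, stood at 7.89, 7.66 and 7.63 with gefitinib against 6.78, 6.97 and 6.65 with DMSO in monoculture (0.93 ± 0.14, adjusted p = 0.000492). In co-culture IFIH1 had 6.55, 6.84 and 7.00 with gefitinib against 6.72, 6.70 and 6.39 without. The difference of the gefitinib effects, co-culture minus monoculture here and throughout, was -1.56 ± 0.29 for DHX58 (adjusted p = 0.0037), -1.37 ± 0.28 for RIGI (adjusted p = 0.00654) and -0.73 ± 0.20 for IFIH1 (adjusted p = 0.0287). The call of IFIH1 was lost without gefitinib monoculture replicate 1, DMSO monoculture replicate 1 or 3, gefitinib co-culture replicate 1, co-culture replicate 1 or 2 (-0.72 to -0.61); here and throughout, arrays named after "without" were left out 1 at a time, and the log2 values found then stand in brackets. The fit with the replicate number as a block is given apart, in the section on processing choices, and not in these lists. EIF2AK2 (PKR), a kinase that stops translation when it binds double-stranded RNA, was not called with gefitinib. It had 9.27, 9.21 and 9.08 with gefitinib and 9.38, 9.39 and 9.32 with DMSO in monoculture (-0.17 ± 0.10, adjusted p = 0.245), so that the gefitinib arrays were the lower ones without overlap. EIF2AK2 was lower in co-culture without gefitinib, at 8.98, 8.66 and 8.79 against the DMSO values (-0.55 ± 0.10, adjusted p = 0.0176), a call that was lost with median scaling (-0.54), with only the compared arrays fitted (-0.55) and without DMSO monoculture replicate 1, 2 or 3, co-culture replicate 2 (-0.57 to -0.48). With gefitinib in co-culture it had 8.83, 8.95 and 9.04.

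All 3 tested transcription factors rose with gefitinib in monoculture. IRF9, the DNA-binding part of the interferon-activated complex, had 10.47, 10.38 and 10.43 with gefitinib against 9.33, 9.39 and 9.62 with DMSO (0.98 ± 0.10, adjusted p = 2.18e-05). In co-culture IRF9 had 9.24, 9.44 and 9.25 with gefitinib against 9.41, 9.37 and 9.32 without. The 3 gefitinib monoculture values lay more than the spread of any group above the other 9. IRF7, which drives interferon alpha genes and is itself induced by interferon, had 8.82, 8.69 and 8.38 with gefitinib against 7.74, 7.39 and 7.70 with DMSO in monoculture (1.02 ± 0.18, adjusted p = 0.00121). In co-culture IRF7 had 7.54, 7.92 and 7.29 with gefitinib against 7.63, 7.42 and 7.22 without. The difference of the effects was -1.03 ± 0.14 for IRF9 (adjusted p = 0.000536) and -0.86 ± 0.26 for IRF7 (adjusted p = 0.0383). The call of IRF7 was lost with median scaling (-0.82), without the detection filter (-0.86), over the mean of its probes (-0.78) and without gefitinib monoculture replicate 1 or 2, DMSO monoculture replicate 2 or 3, gefitinib co-culture replicate 1 or 3, co-culture replicate 1 or 2 (-0.91 to -0.72). IRF1, an activator of both interferon types' targets, had the smallest change of the 3, with 10.22, 10.17 and 10.23 with gefitinib against 9.82, 9.79 and 9.67 with DMSO in monoculture (0.45 ± 0.12, adjusted p = 0.0151). In co-culture IRF1 had 9.70, 9.89 and 9.76 with gefitinib against 9.97, 9.69 and 9.46 without. The call of IRF1 in monoculture was lost with median scaling (0.27) and without DMSO monoculture replicate 3 (0.40).

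**Figure D3:**
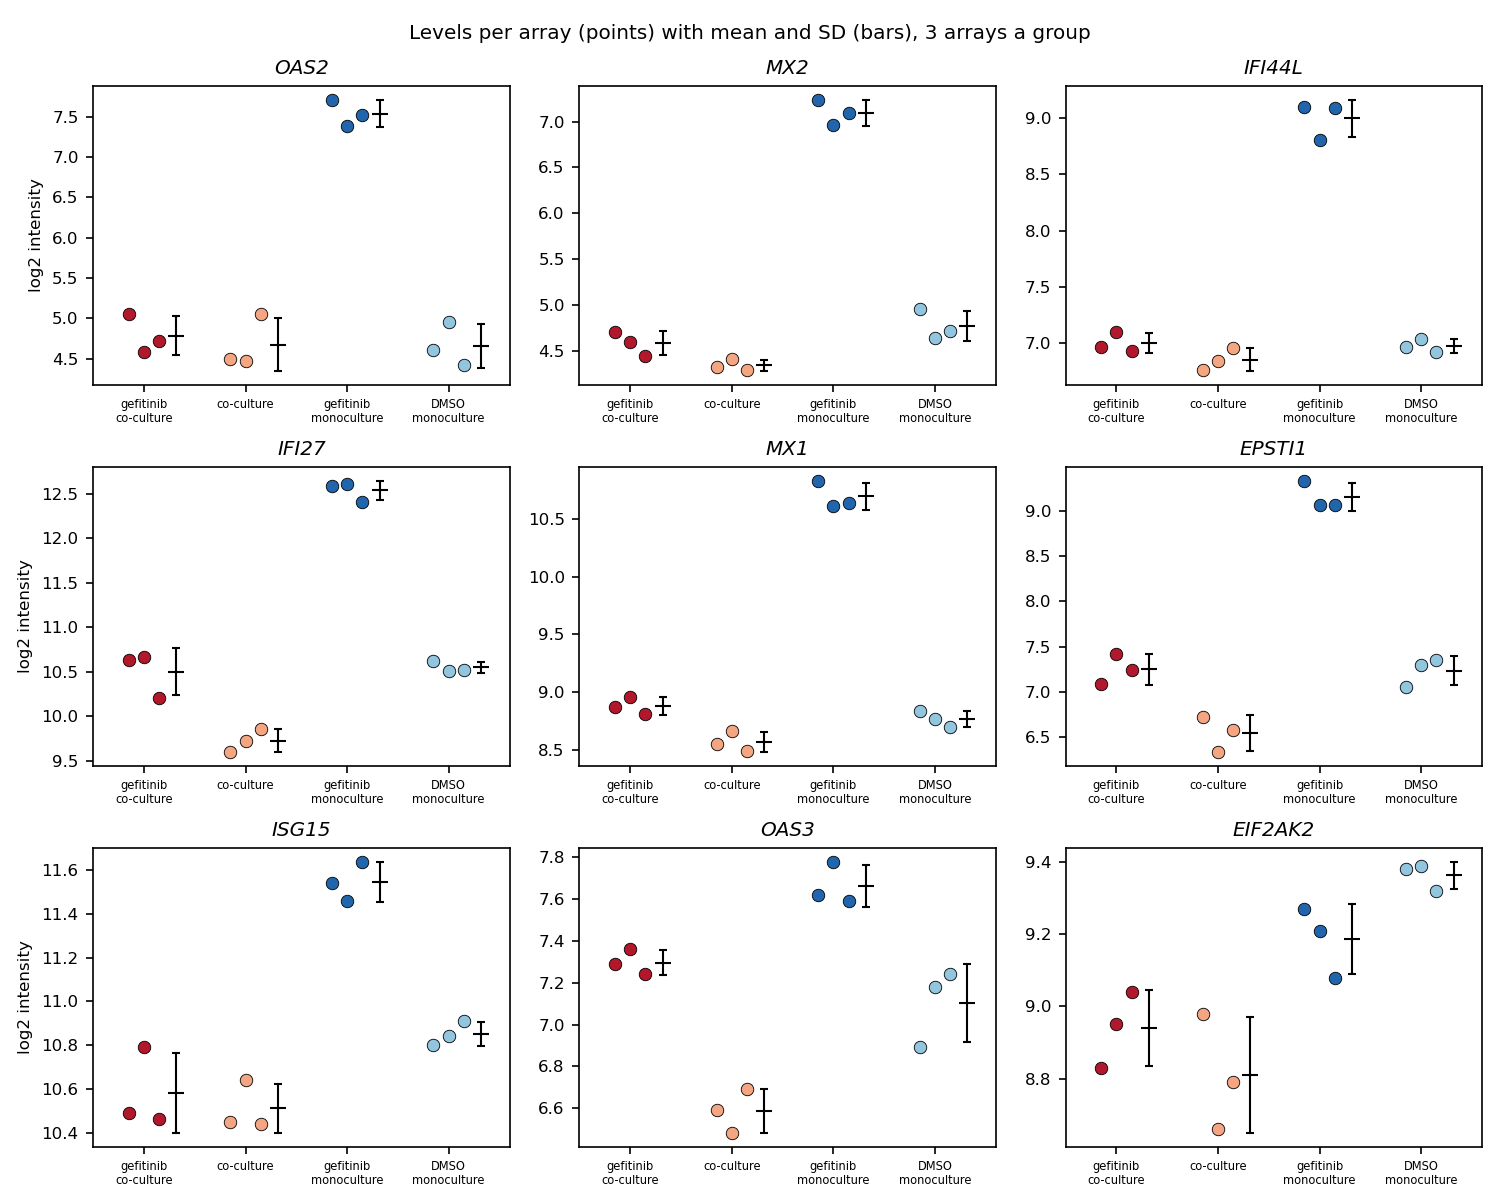
Levels (log2 intensity) of 9 genes on each array: points are arrays, and the black mark with bars beside them is the mean with its SD (n = 3). OAS2, MX2, IFI44L, IFI27, MX1, EPSTI1 and ISG15 are highest on the 3 gefitinib monoculture arrays, OAS3 is also higher with gefitinib in co-culture, and EIF2AK2 is highest with DMSO in monoculture.

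The 2′-5′-oligoadenylate synthetases, enzymes whose product activates the RNA-degrading RNase L, all rose with gefitinib in monoculture, but unequally. OAS2 had the largest fitted change of the members, with 7.71, 7.38 and 7.52 with gefitinib against 4.61, 4.95 and 4.42 with DMSO (7.35-fold, 2.88 ± 0.19, adjusted p = 7.85e-07). Since 1 of the 3 DMSO arrays detected it, the size of this change is uncertain. In co-culture OAS2 stood at 5.05, 4.58 and 4.72 with gefitinib and 4.50, 4.47 and 5.05 without, where 2 of 3 arrays in each group detected it. The gefitinib effect on OAS2 thus differed by -2.77 ± 0.27 between co-culture and monoculture (adjusted p = 5.17e-05). OAS1 had 7.88, 7.68 and 7.80 with gefitinib against 6.51, 6.71 and 6.62 with DMSO in monoculture (1.17 ± 0.20, adjusted p = 0.000842). In co-culture OAS1 had 6.42, 6.70 and 6.05 with gefitinib against 5.89, 6.51 and 6.62 without, with a difference of effects of -1.13 ± 0.28 (adjusted p = 0.0169). OAS3 was called in both settings: it had 7.62, 7.78 and 7.59 with gefitinib against 6.89, 7.18 and 7.24 with DMSO in monoculture (0.56 ± 0.11, adjusted p = 0.00255). In co-culture OAS3 had 7.29, 7.36 and 7.24 with gefitinib against 6.59, 6.48 and 6.69 without (0.71 ± 0.11, adjusted p = 0.00806). Neither pair of groups overlapped, and the difference of the 2 effects was 0.15 ± 0.16 (adjusted p = 0.578). OAS3 was also lower in co-culture than in monoculture without gefitinib (-0.51 ± 0.11, adjusted p = 0.0314) and with it (-0.36 ± 0.11, adjusted p = 0.0239). The first of these was lost with only the compared arrays fitted (-0.51) and without DMSO monoculture replicate 2 or 3, co-culture replicate 1 or 2 (-0.52 to -0.45), and the second without gefitinib monoculture replicate 2, gefitinib co-culture replicate 1 or 3 (-0.36 to -0.31). OASL, a relative without the synthetase activity, was detected on all gefitinib monoculture arrays (5.04, 4.99 and 5.02) and on 0 of the DMSO arrays, at least 1.43-fold higher (adjusted p = 0.0351). That call was lost on the authors' normalized values (0.21), with cyclic loess (0.56), without background correction (0.21) and without gefitinib monoculture replicate 1, 2 or 3, DMSO monoculture replicate 1 or 2 (0.53 to 0.62).

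Among the IFIT genes, which bind foreign RNA caps and ends, 3 of 4 rose with gefitinib in monoculture. IFIT2 had 8.46, 8.02 and 8.14 with gefitinib against 6.72, 6.57 and 6.43 with DMSO (1.63 ± 0.16, adjusted p = 1.34e-05). In co-culture IFIT2 had 7.01, 7.52 and 7.00 with gefitinib against 6.55, 6.50 and 6.58 without (0.63 ± 0.16, adjusted p = 0.0919). IFIT3, its binding partner, had 7.82, 7.59 and 7.52 with gefitinib against 6.61, 6.56 and 6.33 with DMSO in monoculture (1.14 ± 0.11, adjusted p = 1.04e-05). In co-culture IFIT3 had 6.83, 6.67 and 6.72 with gefitinib against 6.27, 6.28 and 6.29 without (0.46 ± 0.11, adjusted p = 0.0657). For both genes the gefitinib arrays lay above their controls in either setting without overlap, though the co-culture changes missed the threshold (that of IFIT2 passed it on the authors' normalized values (0.38) and without background correction (0.37), and that of IFIT3 with detection asked on 6 arrays (0.46)). The difference of effects was -1.0 ± 0.22 for IFIT2 (adjusted p = 0.00948) and -0.68 ± 0.15 for IFIT3 (adjusted p = 0.00911). IFIT1, the cap-binding member, had 8.54, 8.17 and 8.51 with gefitinib against 7.93, 8.07 and 7.55 with DMSO in monoculture (0.56 ± 0.18, adjusted p = 0.0353). In co-culture IFIT1 had 7.66, 7.82 and 7.34 with gefitinib against 7.39, 7.81 and 7.42 without. The call of IFIT1 in monoculture was lost with median scaling (0.46), over the mean of its probes (0.36) and without gefitinib monoculture replicate 1 or 3, DMSO monoculture replicate 1 or 3 (0.41 to 0.59). In co-culture with gefitinib it was lower than in monoculture with gefitinib (-0.80 ± 0.18, adjusted p = 0.00469). IFIT5 changed by -0.06 ± 0.19 in monoculture (adjusted p = 0.844), and its 12 values lay between 4.39 and 5.51.

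The membrane restriction factors, IFITM proteins that block the fusion of viruses with endosomes and BST2 (tetherin) that holds budding virions at the surface, all rose with gefitinib in monoculture and all had a lower gefitinib effect in co-culture. IFITM1 had 7.64, 7.59 and 7.57 with gefitinib against 6.07, 6.16 and 6.35 with DMSO (1.41 ± 0.18, adjusted p = 0.000138). In co-culture IFITM1 had 6.05, 6.48 and 5.94 with gefitinib against 6.36, 6.35 and 5.71 without. IFITM3 had 10.49, 10.35 and 10.46 with gefitinib against 9.61, 9.54 and 9.74 with DMSO in monoculture (0.80 ± 0.11, adjusted p = 0.000239). In co-culture IFITM3 had 9.30, 9.26 and 8.91 with gefitinib against 9.21, 9.12 and 9.15 without. All 6 co-culture values of IFITM3 lay below the 3 DMSO monoculture values, and the same was true of IFITM2. IFITM2 had 10.68, 10.71 and 10.87 with gefitinib against 9.99, 10.05 and 9.96 with DMSO in monoculture (0.76 ± 0.098, adjusted p = 0.00013). In co-culture IFITM2 had 9.41, 9.50 and 9.40 with gefitinib against 9.66, 9.38 and 9.43 without. Without gefitinib, co-culture was lower than monoculture, with log2 differences of -0.51 ± 0.098 for IFITM2 (adjusted p = 0.0195) and -0.47 ± 0.11 for IFITM3 (adjusted p = 0.0473). The first was lost with median scaling (-0.49), with only the compared arrays fitted (-0.51) and without DMSO monoculture replicate 1, 2 or 3, co-culture replicate 2 or 3 (-0.53 to -0.46), and the second with median scaling (-0.46), with cyclic loess (-0.46), without the detection filter (-0.47), with only the compared arrays fitted (-0.47) and without DMSO monoculture replicate 1, 2 or 3, co-culture replicate 1, 2 or 3 (-0.51 to -0.42). BST2 had 7.43, 7.24 and 7.22 with gefitinib against 6.68, 6.91 and 6.86 with DMSO (0.48 ± 0.15, adjusted p = 0.0336), a call that was lost with median scaling (0.41), with cyclic loess (0.44) and without gefitinib monoculture replicate 1, 2 or 3, DMSO monoculture replicate 1, 2 or 3 (0.41 to 0.53). In co-culture it had 6.28, 6.14 and 5.71 with gefitinib against 6.44, 6.63 and 6.24 without (-0.39 ± 0.15, adjusted p = 0.328). The difference of effects was -1.39 ± 0.26 for IFITM1 (adjusted p = 0.0037), -0.81 ± 0.14 for IFITM2 (adjusted p = 0.00225), -0.81 ± 0.16 for IFITM3 (adjusted p = 0.00507) and -0.88 ± 0.22 for BST2 (adjusted p = 0.0172). The 3 IFITM genes are close in sequence and neighbours in the genome, and whether their probes tell them apart was not tested.

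The MX proteins, dynamin-like GTPases that trap viral nucleocapsids and capsids, had some of the largest changes of the set. MX2 had 7.24, 6.96 and 7.09 with gefitinib against 4.95, 4.64 and 4.71 with DMSO (5.03-fold, 2.33 ± 0.11, adjusted p = 8.77e-08), and 4.70, 4.60 and 4.44 with gefitinib in co-culture, while the 3 co-culture arrays without gefitinib did not detect it (a lower bound of 1.1-fold with gefitinib over without, adjusted p = 0.441). MX1 had 10.83, 10.61 and 10.64 with gefitinib against 8.84, 8.77 and 8.70 with DMSO in monoculture (3.79-fold, 1.92 ± 0.095, adjusted p = 9.23e-08). In co-culture MX1 had 8.87, 8.96 and 8.81 with gefitinib against 8.55, 8.66 and 8.49 without (0.32 ± 0.095, adjusted p = 0.173). The co-culture groups of MX1 did not overlap either, but the change missed the threshold, and the effects differed by -1.61 ± 0.13 (adjusted p = 1.77e-05). For MX2 the difference passed the test too (adjusted p = 1.08e-05), but its co-culture control was not well above background on any array, so no size is given.

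Guanylate-binding proteins, GTPases that coat pathogens and their vacuoles, rose as well. GBP2 had 10.66, 10.61 and 10.64 with gefitinib against 8.71, 8.88 and 8.87 with DMSO (3.52-fold, 1.82 ± 0.083, adjusted p = 6.66e-08). In co-culture it had 8.91, 8.98 and 8.97 with gefitinib against 8.56, 8.44 and 8.43 without (0.47 ± 0.083, adjusted p = 0.0158). GBP2 was thus among the few genes called in both settings, with an effect that was lower in co-culture by 1.34 on the log2 scale (adjusted p = 2.45e-05). The co-culture call was lost with median scaling (0.43), with only the compared arrays fitted (0.47) and without gefitinib co-culture replicate 2 or 3, co-culture replicate 2 or 3 (0.45 to 0.47). Co-culture was lower than monoculture for GBP2 without gefitinib too (-0.34 ± 0.083, adjusted p = 0.0478), a call that was lost with median scaling (-0.33), with cyclic loess (-0.33), without the detection filter (-0.34), with only the compared arrays fitted (-0.34) and without DMSO monoculture replicate 1, 2 or 3, co-culture replicate 1, 2 or 3 (-0.40 to -0.31). GBP1 had 9.41, 9.32 and 9.52 with gefitinib against 8.13, 7.82 and 8.07 with DMSO in monoculture (1.41 ± 0.11, adjusted p = 3.5e-06). In co-culture GBP1 had 7.92, 7.68 and 7.99 with gefitinib against 7.62, 7.65 and 7.62 without, with a difference of effects of -1.17 ± 0.16 (adjusted p = 0.000536).

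Of the remaining antiviral enzymes, ISG20, an RNA exonuclease, had 9.47, 9.37 and 9.19 with gefitinib against 8.51, 8.63 and 8.70 with DMSO in monoculture (0.73 ± 0.11, adjusted p = 0.000458). In co-culture its order was turned round, with 8.60, 8.66 and 8.47 with gefitinib against 8.97, 8.97 and 8.70 without (-0.30 ± 0.11, adjusted p = 0.288), which missed the threshold. The effects differed by -1.04 ± 0.16 (adjusted p = 0.00111). DDX60, a helicase that assists RIG-I-type sensing, had 7.13, 7.29 and 7.15 with gefitinib against 6.19, 6.06 and 5.91 with DMSO in monoculture (1.13 ± 0.26, adjusted p = 0.00565). Its values in co-culture were 5.98, 4.92 and 6.16 with gefitinib, where replicate 2 stood apart, and 5.88, 5.60 and 5.95 without, and the difference of effects was -1.26 ± 0.36 (adjusted p = 0.0344), a call that was lost without gefitinib monoculture replicate 1, 2 or 3, DMSO monoculture replicate 1, 2 or 3, co-culture replicate 1 or 3 (-1.32 to -1.18). SAMD9, a restriction factor for poxviruses, had 8.68, 8.52 and 8.65 with gefitinib against 8.31, 8.31 and 7.94 with DMSO in monoculture (0.43 ± 0.16, adjusted p = 0.0565). In co-culture SAMD9 had 7.67, 8.00 and 8.32 with gefitinib against 8.00, 7.98 and 8.10 without. Its paralog SAMD9L had 6.44, 6.23 and 5.91 with gefitinib against 5.65, 5.63 and 5.38 with DMSO in monoculture (0.64 ± 0.26, adjusted p = 0.092). In co-culture SAMD9L had 5.47, 4.68 and 5.78 with gefitinib against 5.70, 5.27 and 4.98 without. For both paralogs the monoculture groups did not overlap although the change missed the threshold, and both were lower in co-culture with gefitinib than in monoculture with gefitinib (-0.62 ± 0.16, adjusted p = 0.00904, for SAMD9 and -0.88 ± 0.26, adjusted p = 0.0222, for SAMD9L). The call of SAMD9L was lost with only the compared arrays fitted (-0.88) and without gefitinib monoculture replicate 1 or 2, gefitinib co-culture replicate 2 (-0.87 to -0.57). With gefitinib in monoculture SAMD9 was called on the authors' normalized values (0.35), without background correction (0.35), with detection asked on 6 arrays (0.43) and with only the compared arrays fitted (0.43), and SAMD9L on the authors' normalized values (0.29), without background correction (0.27) and with only the compared arrays fitted (0.64).

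ISG15 is a ubiquitin-like protein, UBE2L6 is the enzyme that carries it, HERC5 is the ligase that attaches it, and USP18 removes it and restrains the receptor. ISG15 had 11.54, 11.46 and 11.64 with gefitinib against 10.80, 10.84 and 10.91 with DMSO (0.69 ± 0.11, adjusted p = 0.000551). In co-culture ISG15 had 10.49, 10.79 and 10.46 with gefitinib against 10.45, 10.64 and 10.44 without. UBE2L6 had 10.97, 10.97 and 10.73 with gefitinib against 10.14, 10.02 and 10.22 with DMSO in monoculture (0.77 ± 0.11, adjusted p = 0.000211). In co-culture UBE2L6 had 10.00, 10.09 and 9.94 with gefitinib against 10.14, 10.25 and 10.00 without. The effects differed by -0.62 ± 0.15 for ISG15 (adjusted p = 0.0174) and by -0.89 ± 0.15 for UBE2L6 (adjusted p = 0.002), and the first call was lost with median scaling (-0.46). HERC5 had 8.34, 8.17 and 8.05 with gefitinib against 7.76, 7.57 and 7.75 with DMSO in monoculture (0.50 ± 0.10, adjusted p = 0.00311). In co-culture HERC5 had 7.68, 7.47 and 7.65 with gefitinib against 7.53, 7.55 and 7.54 without. HERC6, its relative, had 9.02, 8.79 and 8.74 with gefitinib against 8.33, 7.89 and 7.99 with DMSO in monoculture (0.78 ± 0.15, adjusted p = 0.00242). In co-culture HERC6 had 8.02, 8.30 and 7.97 with gefitinib against 7.46, 7.90 and 7.76 without (0.39 ± 0.15, adjusted p = 0.334). The monoculture groups of both ligases were apart, and their differences of effects were not called (-0.44 ± 0.14, adjusted p = 0.0603, for HERC5 and -0.39 ± 0.22, adjusted p = 0.26, for HERC6). That of HERC5 was called on the authors' normalized values (-0.33), without background correction (-0.33), with detection asked on 6 arrays (-0.44) and without gefitinib monoculture replicate 3 (-0.50). USP18 was detected on 4 arrays in all, with levels of 4.68, 4.71 and 4.31 with gefitinib and 5.16, 4.91 and 4.42 with DMSO in monoculture (-0.26 ± 0.18, adjusted p = 0.335). TRIM25, a ligase that modifies RIG-I and is itself a target of ISG15, had 8.39, 8.57 and 8.23 with gefitinib against 8.35, 8.67 and 8.65 with DMSO in monoculture (-0.16 ± 0.14, adjusted p = 0.446). The groups overlapped for USP18 and TRIM25, and neither was called in any comparison.

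Of the PARP genes, enzymes of the ADP-ribosyltransferase family, 1 of 3 rose. PARP14 had 8.84, 8.82 and 8.73 with gefitinib against 8.09, 7.90 and 8.05 with DMSO (0.78 ± 0.10, adjusted p = 0.000129). In co-culture PARP14 had 7.67, 7.51 and 7.68 with gefitinib against 7.73, 7.49 and 7.75 without, so that all 6 co-culture values lay below the DMSO monoculture values. The difference of effects was -0.81 ± 0.14 (adjusted p = 0.00253). PARP9 had 8.21, 8.33 and 8.01 with gefitinib against 8.01, 7.72 and 7.66 with DMSO in monoculture (0.38 ± 0.14, adjusted p = 0.0609). In co-culture PARP9 had 7.80, 7.49 and 7.89 with gefitinib against 7.52, 7.78 and 7.61 without. It was lower in co-culture with gefitinib than in monoculture with gefitinib (-0.45 ± 0.14, adjusted p = 0.0269), but its other probe had the opposite sign (0.03 ± 0.17), and the call was lost with median scaling (-0.39), over the mean of its probes (-0.21), with only the compared arrays fitted (-0.45) and without gefitinib monoculture replicate 1 or 2, gefitinib co-culture replicate 2 (-0.44 to -0.33). In monoculture PARP9 was called on the authors' normalized values (0.29), without background correction (0.29), with detection asked on 6 arrays (0.38) and without gefitinib monoculture replicate 3, DMSO monoculture replicate 1 (0.47 to 0.49). PARP12 lay between 8.74 and 9.05 on all 12 arrays and changed by 0.01 ± 0.093 with gefitinib in monoculture (adjusted p = 0.95).

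The IFI genes, named for their induction by interferon, held several of the largest changes. IFI44L had 9.10, 8.81 and 9.09 with gefitinib against 6.97, 7.04 and 6.92 with DMSO (4.07-fold, 2.03 ± 0.10, adjusted p = 1.25e-07). In co-culture IFI44L had 6.97, 7.10 and 6.93 with gefitinib against 6.76, 6.84 and 6.96 without. Its co-culture groups overlapped, and the effects differed by -1.88 ± 0.15 (adjusted p = 1.22e-05). The second kept probe of IFI44L had a log2 change of 0.37 ± 0.23 in monoculture. IFI27, a mitochondrial protein, had 12.59, 12.61 and 12.41 with gefitinib against 10.62, 10.51 and 10.52 with DMSO in monoculture (3.95-fold, 1.98 ± 0.13, adjusted p = 7.24e-07). In co-culture IFI27 had 10.63, 10.67 and 10.20 with gefitinib against 9.60, 9.72 and 9.86 without (0.77 ± 0.13, adjusted p = 0.0123). The gefitinib co-culture values overlapped those of DMSO in monoculture, the co-culture arrays without gefitinib were lowest (-0.83 ± 0.13 against DMSO monoculture, adjusted p = 0.0076), and the effects differed by -1.21 ± 0.19 (adjusted p = 0.00109). The co-culture call of IFI27 was lost with only the compared arrays fitted (0.77) and without gefitinib co-culture replicate 1, co-culture replicate 1 (0.71). IFI44, a relative of IFI44L, had 9.48, 9.35 and 9.43 with gefitinib against 8.28, 8.33 and 8.02 with DMSO in monoculture (1.21 ± 0.11, adjusted p = 6.42e-06). In co-culture IFI44 had 8.46, 8.34 and 8.37 with gefitinib against 8.39, 8.19 and 8.16 without. IFI6, which protects cells from apoptosis, had 11.24, 11.30 and 11.10 with gefitinib against 10.06, 10.07 and 10.11 with DMSO in monoculture (1.13 ± 0.10, adjusted p = 7.26e-06). In co-culture IFI6 had 9.66, 9.98 and 9.78 with gefitinib against 9.62, 9.72 and 9.75 without. The differences of effects were -1.07 ± 0.15 for IFI44 (adjusted p = 0.000618) and -1.03 ± 0.14 for IFI6 (adjusted p = 0.000578). IFI35 had 8.79, 8.70 and 8.85 with gefitinib against 8.44, 8.28 and 8.52 with DMSO in monoculture (0.37 ± 0.14, adjusted p = 0.0693), without overlap but past no threshold. In co-culture IFI35 had 8.36, 8.17 and 7.92 with gefitinib against 8.14, 8.34 and 7.87 without. It was lower in co-culture with gefitinib than in monoculture with gefitinib (-0.63 ± 0.14, adjusted p = 0.00472). In monoculture IFI35 was called on the authors' normalized values (0.31), without background correction (0.31) and with only the compared arrays fitted (0.37).

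All 5 members outside these families rose with gefitinib in monoculture. EPSTI1, named for its induction in epithelium by stromal cells, had 9.34, 9.07 and 9.07 with gefitinib against 7.05, 7.30 and 7.35 with DMSO (1.92 ± 0.14, adjusted p = 1.44e-06). In co-culture it had 7.08, 7.42 and 7.24 with gefitinib against 6.72, 6.33 and 6.57 without (0.71 ± 0.14, adjusted p = 0.0291). Without gefitinib EPSTI1 was lower in co-culture with fibroblasts than in monoculture (-0.70 ± 0.14, adjusted p = 0.0237), with no overlap between the groups. The gefitinib call in co-culture was lost with only the compared arrays fitted (0.71) and without gefitinib co-culture replicate 2 or 3, co-culture replicate 2 or 3 (0.60 to 0.72), and the call without gefitinib with only the compared arrays fitted (-0.70) and without DMSO monoculture replicate 2 or 3, co-culture replicate 2 or 3 (-0.71 to -0.59). The gefitinib effects on EPSTI1 differed by -1.22 ± 0.20 (adjusted p = 0.00152). LGALS3BP, a secreted glycoprotein that binds galectins, had 9.98, 9.95 and 9.92 with gefitinib against 8.97, 8.77 and 8.91 with DMSO in monoculture (1.06 ± 0.12, adjusted p = 4.91e-05). In co-culture LGALS3BP had 8.94, 8.97 and 8.75 with gefitinib against 8.56, 8.45 and 8.90 without. XAF1, an antagonist of the apoptosis inhibitor XIAP, had 8.72, 8.53 and 8.55 with gefitinib against 7.46, 7.57 and 7.64 with DMSO in monoculture (1.04 ± 0.097, adjusted p = 1.06e-05). In co-culture XAF1 had 7.75, 7.92 and 7.72 with gefitinib against 7.55, 7.41 and 7.50 without (0.31 ± 0.097, adjusted p = 0.197). The difference of effects was -0.81 ± 0.17 for LGALS3BP (adjusted p = 0.0071) and -0.73 ± 0.14 for XAF1 (adjusted p = 0.00376). SP110, a nuclear body protein, had 9.41, 9.44 and 9.48 with gefitinib against 8.97, 8.98 and 8.96 with DMSO in monoculture (0.48 ± 0.080, adjusted p = 0.000834). In co-culture SP110 had 8.82, 8.84 and 8.89 with gefitinib against 9.01, 8.92 and 8.83 without, a difference of effects of -0.55 ± 0.11 (adjusted p = 0.00637; not called with median scaling (-0.45)). The 3 other probes of SP110 had log2 changes of 0.33, 0.38 and 0.54 in monoculture, and the first of them had the opposite sign in co-culture against monoculture under gefitinib (0.03). PLSCR1, a phospholipid scramblase, had 7.48, 7.64 and 7.24 with gefitinib against 6.52, 6.85 and 7.02 with DMSO in monoculture (0.66 ± 0.15, adjusted p = 0.0058). In co-culture PLSCR1 had 6.56, 6.90 and 6.90 with gefitinib against 6.65, 6.62 and 6.58 without, and its difference of effects was not called (-0.48 ± 0.21, adjusted p = 0.146).

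**Figure D4:**
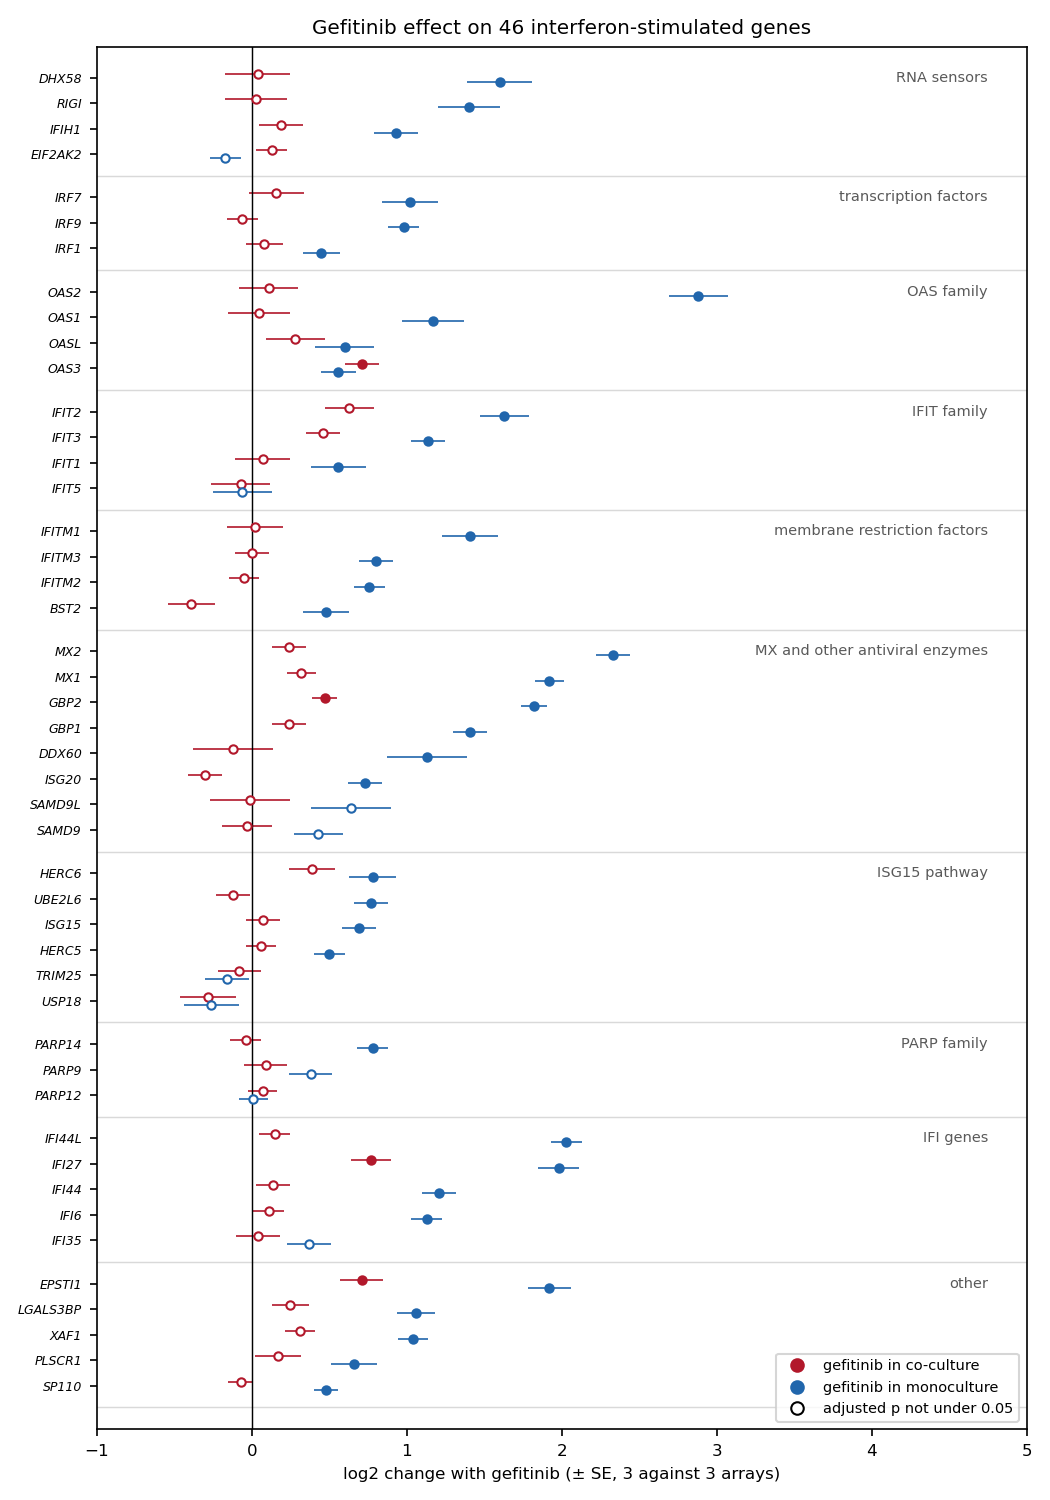
Log2 change with gefitinib in co-culture (red) and in monoculture (blue) for each of the 46 tested genes, grouped by role, with standard errors (3 against 3 arrays); open symbols did not pass an adjusted p of 0.05. Filled blue symbols mark the 37 genes that rose in monoculture, and filled red ones OAS3, GBP2, IFI27 and EPSTI1.

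Of the 46 tested genes 11 had further kept probes, 15 in all. With gefitinib in monoculture, 14 of these probes belonged to genes that rose, and 0 had the opposite sign. In co-culture against monoculture under gefitinib, 15 belonged to genes that were called and 2 had the opposite sign, the probes of PARP9 and SP110 named above.

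The genes for the interferons themselves were mostly not detected. Of 21 interferon genes looked up, 2 were tested, IFNE (a type I interferon of epithelia) and IFNW1. IFNB1 and IFNK were detected on 0 arrays, the interferon alpha genes on 2 at most, the interferon lambda genes on 1 at most and IFNG on 1. IFNE had 5.82, 5.87 and 5.37 with gefitinib against 5.13, 5.26 and 5.31 with DMSO in monoculture (0.45 ± 0.21, adjusted p = 0.135). In co-culture IFNE had 4.76, 5.31 and 4.57 with gefitinib against 5.15, 5.21 and 4.62 without. Its monoculture groups did not overlap on this probe, but the change did not pass the test. The 2 other kept probes of IFNE had the opposite sign in monoculture (-0.152 ± 0.315 and -0.077 ± 0.241). IFNE was lower in co-culture with gefitinib than in monoculture with gefitinib (-0.80 ± 0.21, adjusted p = 0.0116). Over the mean of its 3 kept probes that difference was not called (-0.22). Interferon protein was not measured.

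Of 6 interferon receptor genes, 5 rose with gefitinib in monoculture, against 16.9% of all genes, and 0 were called in co-culture, 2 at an unadjusted p under 0.05 (11.8% of all genes). IFNAR1 had 8.39, 8.42 and 8.41 with gefitinib against 7.78, 7.78 and 7.97 with DMSO (0.56 ± 0.11, adjusted p = 0.00192). IFNAR2 had 8.03, 8.19 and 8.35 with gefitinib against 7.21, 7.50 and 7.54 with DMSO (0.77 ± 0.12, adjusted p = 0.000597). The other 3 were IL10RB (0.63 ± 0.089), which also serves interferon lambda, IFNGR1 (0.62 ± 0.13) and IFNGR2 (0.86 ± 0.092), the receptor pair for interferon gamma. IFNLR1, the lambda-specific chain, missed the threshold (0.60 ± 0.21, adjusted p = 0.0529) and passed it on the authors' normalized values (0.35), without background correction (0.36), with detection asked on 6 arrays (0.60), with only the compared arrays fitted (0.60) and without gefitinib monoculture replicate 3, DMSO monoculture replicate 1 (0.73 to 0.74). The other kept probe of IFNLR1 had the opposite sign in monoculture (-0.105 ± 0.293). All 5 genes that rose were lower in co-culture with gefitinib than in monoculture with gefitinib, by log2 differences between -0.86 and -0.69. The gefitinib effects differed between the settings for IL10RB (-0.44 ± 0.13, adjusted p = 0.0339) and IFNGR2 (-0.56 ± 0.13, adjusted p = 0.0115). The first call was lost with median scaling (-0.32) and without gefitinib monoculture replicate 1 or 2, DMSO monoculture replicate 1, 2 or 3, gefitinib co-culture replicate 1 or 3, co-culture replicate 1 or 2 (-0.45 to -0.39), and the second with median scaling (-0.41). The difference missed the threshold for IFNAR1 (-0.44 ± 0.15, adjusted p = 0.0732), IFNAR2 (-0.45 ± 0.17, adjusted p = 0.104) and IFNGR1 (-0.47 ± 0.18, adjusted p = 0.0983). It passed for IFNAR1 on the authors' normalized values (-0.35), without background correction (-0.35) and without gefitinib co-culture replicate 3 (-0.53), for IFNAR2 on the authors' normalized values (-0.35) and without background correction (-0.35), and for IFNGR1 on the authors' normalized values (-0.40), without background correction (-0.40) and without gefitinib co-culture replicate 3 (-0.60).

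Among 12 tested kinases and adaptors that lead to or from the receptors, 4 rose with gefitinib in monoculture and 0 fell, against 16.9% and 14.5% of all genes. These were the receptor kinases JAK1 (0.85 ± 0.17, adjusted p = 0.00304) and TYK2 (0.45 ± 0.10, adjusted p = 0.00478), and TBK1 (0.50 ± 0.13, adjusted p = 0.0115) and IKBKE (0.52 ± 0.13, adjusted p = 0.0078), which phosphorylate IRF factors. TYK2 and TBK1 were not called with median scaling (0.29 each). In co-culture 0 of the 12 were called, 2 at an unadjusted p under 0.05, a share near the 11.8% of all genes. STING1, the adaptor of cytoplasmic DNA sensing, was in co-culture 7.00, 6.78 and 6.46 with gefitinib against 7.46, 7.30 and 7.20 without (-0.57 ± 0.13, adjusted p = 0.0646) and in monoculture 7.33, 7.29 and 7.25 with gefitinib against 6.85, 7.03 and 7.01 with DMSO (0.33 ± 0.13, adjusted p = 0.0854). Neither shift passed the test (the co-culture one did on the authors' normalized values (-0.36), without background correction (-0.35), with detection asked on 6 arrays (-0.57) and without gefitinib co-culture replicate 1 (-0.70), the monoculture one with only the compared arrays fitted (0.33)), and the difference of effects did (-0.90 ± 0.19, adjusted p = 0.00651). The difference was also called for JAK1 (-0.86 ± 0.25, adjusted p = 0.0322) and TYK2 (-0.50 ± 0.14, adjusted p = 0.0323). It was lost for JAK1 with median scaling (-0.75) and without gefitinib monoculture replicate 1, 2 or 3, DMSO monoculture replicate 3, gefitinib co-culture replicate 2, co-culture replicate 3 (-0.89 to -0.70), and for TYK2 with median scaling (-0.38) and without gefitinib monoculture replicate 1 or 2, DMSO monoculture replicate 2 or 3, gefitinib co-culture replicate 2 or 3, co-culture replicate 1 or 2 (-0.50 to -0.44). MAVS, the adaptor of the RNA sensors, and IRF3, which TBK1 activates, were not called in any comparison.

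Of the 6 tested negative regulators of the pathway, 1 rose in monoculture, near the 16.9% of all genes. PTPN6, a phosphatase that dephosphorylates JAK kinases, had 7.89, 7.91 and 8.02 with gefitinib against 7.18, 6.89 and 7.13 with DMSO (0.87 ± 0.096, adjusted p = 3.73e-05). In co-culture PTPN6 had 7.01, 7.10 and 7.05 with gefitinib against 7.04, 7.07 and 7.16 without. SOCS3, which blocks receptor-bound JAK kinases, was higher in co-culture with gefitinib (6.31, 6.53 and 6.08) than in monoculture with gefitinib (5.07, 5.21 and 4.73; 1.30 ± 0.20, adjusted p = 0.000401), but its other probe had the opposite sign (-0.15 ± 0.29). SOCS1 was not called in any comparison.

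Genes known chiefly as targets of interferon gamma were tested in 6 of 11 cases, and 1 of the 6 rose with gefitinib in monoculture, near the 16.9% of all genes. CXCL10, a chemokine that attracts T cells, had 7.44, 7.10 and 7.42 with gefitinib against 4.80, 4.98 and 5.20 with DMSO (5.02-fold, 2.33 ± 0.26, adjusted p = 3.81e-05). In co-culture CXCL10 had 5.92, 4.83 and 5.67 with gefitinib against 4.49, 5.10 and 4.61 without (0.74 ± 0.26, adjusted p = 0.258; called without gefitinib co-culture replicate 2 (1.06)). The effects differed by -1.59 ± 0.36 (adjusted p = 0.0112). WARS1, the tryptophanyl-tRNA synthetase, fell with gefitinib in co-culture, with 10.00, 10.04 and 9.98 with gefitinib against 10.51, 10.62 and 10.64 without (-0.58 ± 0.077, adjusted p = 0.00253; not called with only the compared arrays fitted (-0.58)), and had 10.06, 10.05 and 10.10 with gefitinib against 10.23, 10.26 and 10.18 with DMSO in monoculture (-0.15 ± 0.077, adjusted p = 0.17; called with median scaling (-0.33)). CIITA, CXCL9 and GBP5 were detected on 0 arrays.

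**Figure D5:**
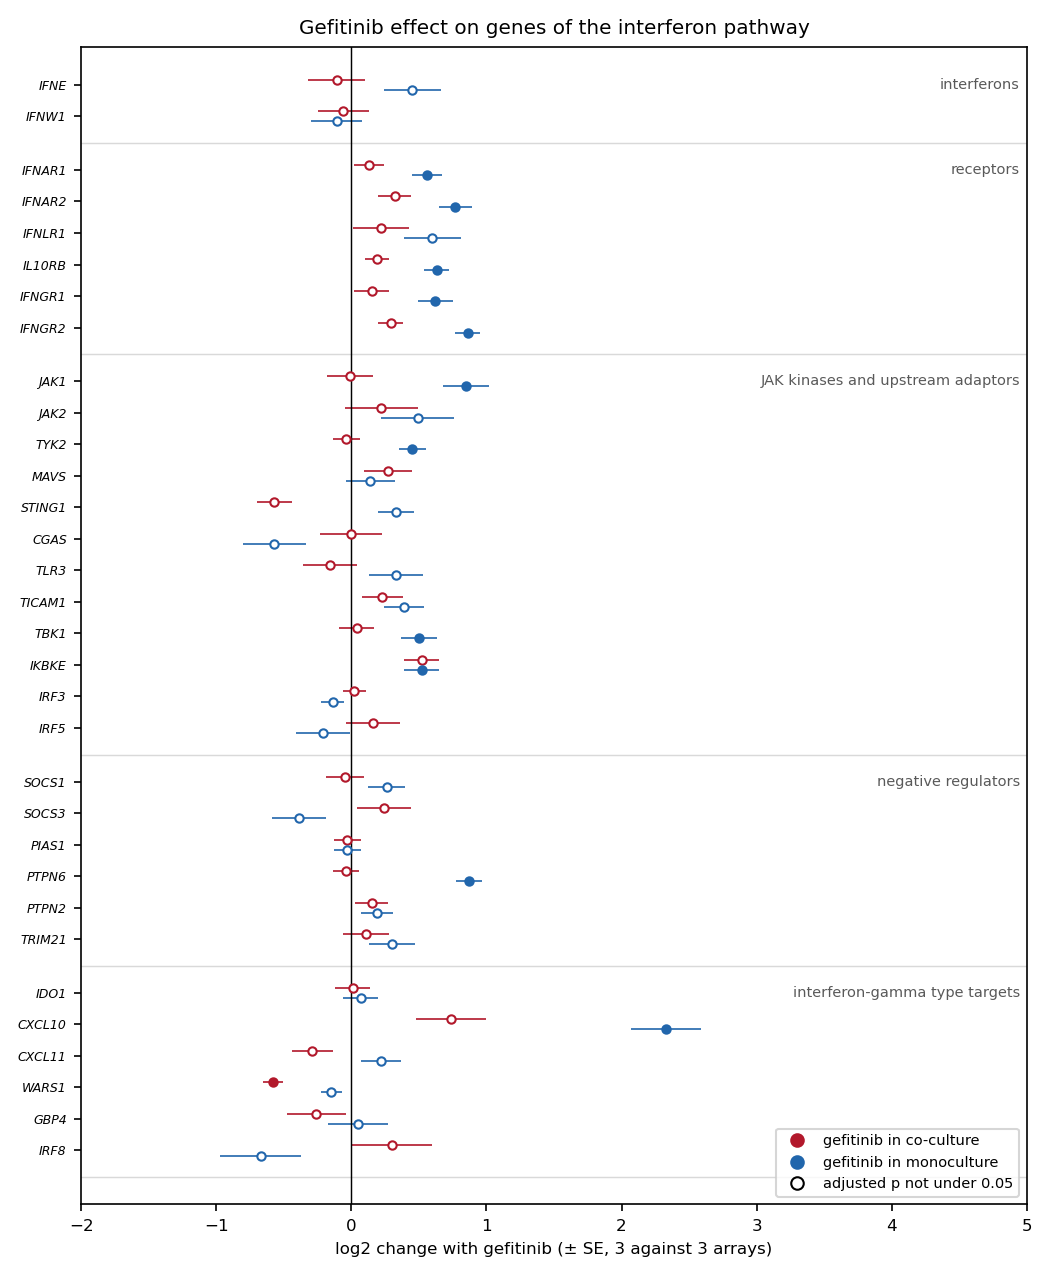
Log2 change with gefitinib in co-culture (red) and in monoculture (blue) for the tested interferon, receptor, kinase and adaptor, regulator and interferon-gamma target genes, with standard errors (3 against 3 arrays); open symbols did not pass an adjusted p of 0.05. Filled blue symbols stand beside 5 receptors, 4 kinases, PTPN6 and CXCL10, and the single filled red one is WARS1.

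Markers of other cells were read beside these results, and the labels give no fibroblasts in the monocultures. Of 15 fibroblast markers 7 were tested, and their summed linear intensity was 4678 to 5224 with gefitinib and 2163 to 2202 with DMSO in monoculture, and 2287 to 2800 with gefitinib and 2536 to 2840 without in co-culture. Most of each sum was VIM. Its mean log2 intensity was 12 with gefitinib and 10.82 with DMSO in monoculture, and 11.17 with gefitinib and 11.19 without in co-culture. Of the 7, COL1A1, COL5A1, LUM and VIM rose with gefitinib in monoculture, as did 16.9% of all genes. The same 4 were lower in co-culture than in monoculture under gefitinib, as were 20.8% of all genes. With gefitinib in co-culture 0 of the 7 were called, 1 at an unadjusted p under 0.05 (11.8% of all genes). The defining fibroblast genes THY1, PDGFRA, PDGFRB, FAP and POSTN were detected on 0 arrays. The 10 lung epithelial markers were all tested, with sums of 28346 to 29229 with gefitinib and 29565 to 30409 with DMSO in monoculture, and 23849 to 24741 with gefitinib and 27136 to 28342 without in co-culture. Under these sums single markers moved both ways: with gefitinib in monoculture KRT18 (-1.60 ± 0.12), KRT8 (-1.42 ± 0.12) and ESRP1 (-0.58 ± 0.15) fell, and ELF3 (0.41 ± 0.088) and KRT7 (0.32 ± 0.081) rose. Over all genes 14.5% fell and 16.9% rose. The fall of KRT18 rests on its brightest probe, and its other kept probe changed by only -0.101 ± 0.234. With gefitinib in co-culture KRT8 fell (-0.75 ± 0.12). Of 6 immune cell markers 4 were tested, with sums of 1352 to 1396 with gefitinib and 1686 to 1826 with DMSO in monoculture and 1666 to 1729 with gefitinib and 1672 to 1916 without in co-culture, and the sum was nearly all CD68, which fell with gefitinib in monoculture (-0.35 ± 0.084). In co-culture with gefitinib CD68 (0.30 ± 0.084) and LYZ (0.78 ± 0.17) were higher than in monoculture with gefitinib. Another kept probe of CD68 had the opposite sign there (-0.228 ± 0.174), and a further one the same sign (0.409 ± 0.092). PTPRC, the pan-leukocyte gene CD45, was detected on 1 array at most. The part of these shifts in the interferon-stimulated gene results was not tested. Across the 12 arrays 43.4% to 46.5% of probes were detected.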

How the data were processed

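The series holds 12 Illumina bead arrays, 3 in each of 4 groups assigned from the sample titles. The deposited scanner table gives linear intensity values with no background subtracted and a detection p-value per probe, per the file headers; how the p-value was made is not given. The authors also deposited normalized intensity values on a linear scale by a method the labels do not name; they served as an alternative. The rows of the 6 co-culture arrays in the scanner table stood in another order, and their 48106 probes were named by matching each array to the authors' normalized values. Gene symbols came from the platform annotation.

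Scanner intensities were background-corrected from the detection p-values, given an offset of 16, quantile-normalized and put on the log2 scale with limma 3.58.1 (R 4.3.3); tables and plots used Python 3.11.15. Probes with a detection p under 0.05 on at least 3 of 12 arrays were kept, and the brightest stood for its gene. One limma fit over all 12 arrays gave 5 comparisons, with Benjamini-Hochberg adjustment over 13577 genes and a threshold of 0.05 for a call. The fit was tested on simulated data. For a gene undetected in a whole group a fold is given as a lower bound against the lowest detected signal of each array.

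The members and lists were chosen with earlier results of these data known. By the rule for naming, values per array went to up to 4 called members per role with the largest change with gefitinib in monoculture, to every member called in another comparison and to any called member whose sign went against the majority; members whose other probes had the opposite sign were named, and the rest were accounted for; other pathway genes came from lists of interferons, receptors, kinases and adaptors, regulators and interferon-gamma targets. Marker lists covered fibroblasts, lung epithelium and immune cells. Intensities of 3 arrays per group limit the precision.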

Additional observations from a re-analysis of the deposited data

Results flagged for a closer look

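The change with gefitinib differed between co-culture and monoculture, by the test of that difference in the fit over all 12 arrays, for 30 of the 46 interferon-stimulated genes and 8 of the pathway genes. Over all genes this difference was called positive for 8.06% and negative for 9.91%. The 8 were 2 of 6 tested receptors, 3 of 12 kinases and adaptors, 1 of 6 negative regulators and 2 of 6 interferon-gamma targets, with 0 of 2 interferons. The values below are log2 changes in co-culture minus those in monoculture. In the RNA sensors and transcription factors they were -1.56 for DHX58, -1.37 for RIGI, -0.73 for IFIH1, -1.03 for IRF9 and -0.86 for IRF7. In the OAS and IFIT families they were -2.77 for OAS2, -1.13 for OAS1, -1.0 for IFIT2 and -0.68 for IFIT3. The membrane restriction factors had -1.39 for IFITM1, -0.81 for IFITM2, -0.81 for IFITM3 and -0.88 for BST2. The other antiviral enzymes had -1.61 for MX1, -1.34 for GBP2, -1.26 for DDX60, -1.17 for GBP1 and -1.04 for ISG20. MX2 passed the test as well, but 0 of 3 co-culture arrays without gefitinib detected it, so its fitted value of -2.09 is not a measured size.

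In the ISG15 pathway the difference was -0.89 for UBE2L6 and -0.62 for ISG15, and among the PARP genes it was -0.81 for PARP14. The IFI genes had -1.88 for IFI44L, -1.21 for IFI27, -1.07 for IFI44 and -1.03 for IFI6. The remaining members had -1.22 for EPSTI1, -0.81 for LGALS3BP, -0.73 for XAF1 and -0.55 for SP110. Among the pathway genes it was -1.59 for CXCL10, -0.91 for PTPN6, -0.90 for STING1, -0.86 for JAK1, -0.56 for IFNGR2, -0.50 for TYK2, -0.44 for IL10RB and -0.43 for WARS1. For WARS1 and STING1 the gefitinib change in co-culture itself was below 0 (-0.58 and -0.57).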

How the results depend on the processing

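The number of interferon-stimulated genes called was 37 with gefitinib in monoculture, 34 to 40 over the other settings and 34 to 35 with 1 array left out. In co-culture against monoculture with gefitinib it was 40, with 38 to 41 and 37 to 39. For the difference of the gefitinib effects it was 30, with 27 to 31 and 27 to 30. Over all genes the shares called in these comparisons, in the same order, were 31.5%, 35.4% and 18%. They were 20% to 37.6%, 22.7% to 41.7% and 10.9% to 22.2% over the other settings. With 1 array left out they were 26.3% to 27.3%, 30.2% to 32.3% and 14.6% to 16.7%. The 4 genes called with gefitinib in co-culture became 0 when only the compared arrays were fitted, and 2 to 3 with 1 array left out. Over all genes 1.5% were called there, 0.449% when only the compared arrays were fitted, and 0.913% to 1.26% with 1 array left out. The 7 called in co-culture against monoculture without gefitinib became 11 on the authors' normalized values, 11 without background correction, 3 with median scaling, 1 when only the compared arrays were fitted, and 1 to 4 with 1 array left out. The share of all genes called moved the same way, from 3.54% to 6.65%, 6.72%, 1.86% and 1.14% in the same order of settings. It was 1.13% to 2.21% with 1 array left out. A call was lost in at least 1 setting by 4 of the 37 genes with gefitinib in monoculture, 4 of the 4 with gefitinib in co-culture and 6 of the 7 in co-culture without gefitinib. It was lost by 4 of the 40 in co-culture with gefitinib and 5 of the 30 for the difference of effects, and 0 called genes changed sign.

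With the replicate number as a block, the counts were 37 with gefitinib in monoculture, 3 with gefitinib in co-culture (EPSTI1 was lost), 3 in co-culture without gefitinib (OAS3, IFITM3, GBP2 and EPSTI1 were lost), 40 in co-culture with gefitinib and 30 for the difference. Over all genes the shares called with the block were 30.8%, 1.13%, 2.45%, 34.9% and 17.1%, in the same order. Among the pathway genes, the difference lost its call for JAK1 (adjusted p = 0.0574) and gained one for IFNAR1 (adjusted p = 0.0486), and IFNLR1 gained one with gefitinib in monoculture (adjusted p = 0.0483), all by limma with the block. In co-culture against monoculture without gefitinib, pathway calls changed with the block too. Those of IL10RB (-0.37), IKBKE (-0.58) and WARS1 (0.37) were lost (adjusted p = 0.0736, 0.0627 and 0.0555 by limma). SOCS3 gained one (0.67, adjusted p = 0.0457 by limma), though its other probe had the opposite sign (-0.257 ± 0.293). The deviations of same-numbered arrays from their group means were hardly correlated (-0.05 to 0.10). With 3 arrays per group this cannot tell whether such arrays were paired in culture or processing. Limits are 3 arrays per group from 1 cell line, unknown independence of the cultures, and an array set that follows co-culture. Members near the detection limit (OAS2, OASL, MX2 and DHX58 outside the gefitinib monoculture arrays, USP18 and IFIT5) have uncertain low levels, and the change of OASL in monoculture was 0.60 with background correction and 0.21 without it.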
